A study of Mus musculus with 6 samples.

Results

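Tight junction genes were followed in RNA from whole mouse lung given saline or lipopolysaccharide (LPS, a cell wall component of Gram-negative bacteria) by instillation into the trachea. The set was chosen by gene symbol and holds 9 of the 23183 genes in the deposited tables. It comprises the claudin genes Cldn3, Cldn4, Cldn5, Cldn7 and Cldn18, the occludin gene Ocln, the zonula occludens scaffold genes Tjp1 and Tjp3, and F11r, which encodes junctional adhesion molecule A. All 9 were present, and all 9 passed the filter on low values. Of the 6 libraries, 3 are titled wild-type saline and 3 wild-type LPS, all on the C57BL/6 background, and neither dose, time after instillation, age nor the number of mice per library is stated in the labels. The labels disagree on genotype: the genotype field gives wild type for saline, LCN2-/- for LPS 1 and LPS 2, and LCN4-/- for LPS 3. Lcn2, the gene of lipocalin-2, had values of 13.60, 13.29 and 13.82 in LPS 1, 2 and 3 and of 8.20, 11.28 and 10.11 in saline 1, 2 and 3, so its RNA was high in the libraries that carry a knockout label. Should the genotype field hold, genotype would be confounded with treatment, and the 2 cannot be told apart in any difference below.

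Tight junctions seal the space between neighbouring cells of an epithelium or a vessel wall. Claudins are the membrane proteins that form the strands of the seal and set which ions and solutes pass, occludin is a further strand protein, and junctional adhesion molecules are immunoglobulin-like adhesion proteins at the same site. Zonula occludens proteins lie beneath the membrane and tie the strands to actin. In lung, claudin-18 and claudin-3 are main claudins of the alveolar epithelium, claudin-4 is known as a claudin that responds to lung injury, and claudin-5 is the main claudin of endothelium.

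The deposited values are on a scale of log2(expression value + 1), and the underlying expression value looks to be divided by transcript length. Every difference is LPS minus saline on this log2 scale, which understates the change of genes with low values. Folds are these differences taken out of the log, and so compare value + 1. Library depth is unknown. The tissue label was checked against Sftpc, the surfactant gene of alveolar type 2 cells (13.46 to 14.004 over the 6 libraries), Ager, a gene of alveolar type 1 cells (9.86 to 10.34), and Scgb1a1 of airway club cells (15.90 to 17.32). The table of LPS 3 ends early, so Tjp1 and Tjp3 have no value in it and were fitted on 5 libraries. No label ties libraries to separate animals, and p-values therefore measure spread among these samples only, a spread that may be technical.

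Cldn3 and Cldn4 are neighbours on mouse chromosome 5, with 39279 bases and 0 annotated genes between them, and are transcribed away from each other. The 250 bases before their RefSeq start sites (GRCm38.p6, the same coordinates as mm10) are shown because Cldn4 passed the test and its neighbour did not, and those of Ocln because it was the member that fell. Capitals mark matches, on either strand, to the motifs searched. These were TGANTCA for AP-1, GGGCGG for the GC box bound by SP1, AACNNGTT for grainyhead-like factors, CAGGTG for the E-box bound by SNAIL factors, TATAAA for the TATA box, and the NF-kB consensus.
Cldn4 (chr5:134946935-134947184, minus strand): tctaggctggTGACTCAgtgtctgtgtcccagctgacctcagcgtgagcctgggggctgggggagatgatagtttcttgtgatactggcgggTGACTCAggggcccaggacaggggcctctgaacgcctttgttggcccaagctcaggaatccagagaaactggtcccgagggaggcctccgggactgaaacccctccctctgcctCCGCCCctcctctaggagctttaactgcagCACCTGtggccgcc
Cldn3 (chr5:134985964-134986213, plus strand): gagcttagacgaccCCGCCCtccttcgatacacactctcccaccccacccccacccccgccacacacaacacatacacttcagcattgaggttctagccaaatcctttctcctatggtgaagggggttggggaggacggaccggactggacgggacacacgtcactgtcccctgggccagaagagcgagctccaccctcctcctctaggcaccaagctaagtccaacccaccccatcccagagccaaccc
Ocln (chr13:100552719-100552968, minus strand): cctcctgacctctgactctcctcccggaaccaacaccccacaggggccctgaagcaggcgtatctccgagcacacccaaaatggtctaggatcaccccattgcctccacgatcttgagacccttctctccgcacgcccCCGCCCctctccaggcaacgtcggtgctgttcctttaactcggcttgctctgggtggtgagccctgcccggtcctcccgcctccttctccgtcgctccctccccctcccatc

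In the window before Cldn4, the AP-1 letters occurred at 2 places, beginning at -240 and -158 relative to the start, with a GC box match at -44 and an E-box match at -14. Of 32851 promoters of the same length, 6.75% held the AP-1 letters at least once and 0.338% at 2 or more places. Of the 9 members, 2 held them, Cldn4 and F11r. The window before Cldn3 held 1 GC box match at -236, and the window before Ocln held 1 at -112. GC box letters occurred in 6 of the 9 members' windows and in 32.7% of all promoters. The grainyhead-like letters occurred in 1 window, that of Cldn5 (3.64% of all promoters), and the E-box letters in 3, those of Cldn4, Tjp3 and F11r (17.2%). The TATA box and the NF-kB consensus occurred in 0 of the 9 windows (12.4% and 7.25% of all promoters). These matches describe letters in a window and are not evidence of binding.

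The claudin genes Cldn4 and Cldn7, F11r and the scaffold gene Tjp3 were higher in LPS, by 0.83 to 1.05 on the log2 scale, and Ocln was lower by 0.76. Cldn3, Cldn5, Cldn18 and Tjp1 did not pass the test. Of the 9 members, 5 passed (4 higher, 1 lower) at an adjusted p of 0.05 (limma, Benjamini-Hochberg adjustment over 13116 genes), where 50.1% of all tested genes passed, 25.7% higher and 24.3% lower. With the deposited scaling, the members' median difference was 0.39, against 0.02 over all genes tested. The 7 members with 6 values all had LPS and saline values that did not overlap, as did 62.3% of the 10295 tested genes with 6 values. The split of directions depends on the scaling. With the deposited scaling 3377 of all tested genes were higher and 3188 lower. With quantile normalization 3 members were higher and 4 lower, where 2694 of all tested genes were higher and 2787 lower. After scaling all libraries to equal sums before the log (equal sums), 0 members were higher and 4 lower. There 798 of all tested genes were higher and 8343 lower. The sums made equal were those of the 18699 genes with 6 values. Before the log they were 467483 to 552368 in saline and 854331 to 885427 in LPS. That second scaling moved the median of all genes from 0.02 to -0.68. The members' median also depends on the scaling. It was -0.11 with quantile normalization, against 0.01 over all genes, and -0.40 with equal sums, against -0.68.

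**Figure D1:**
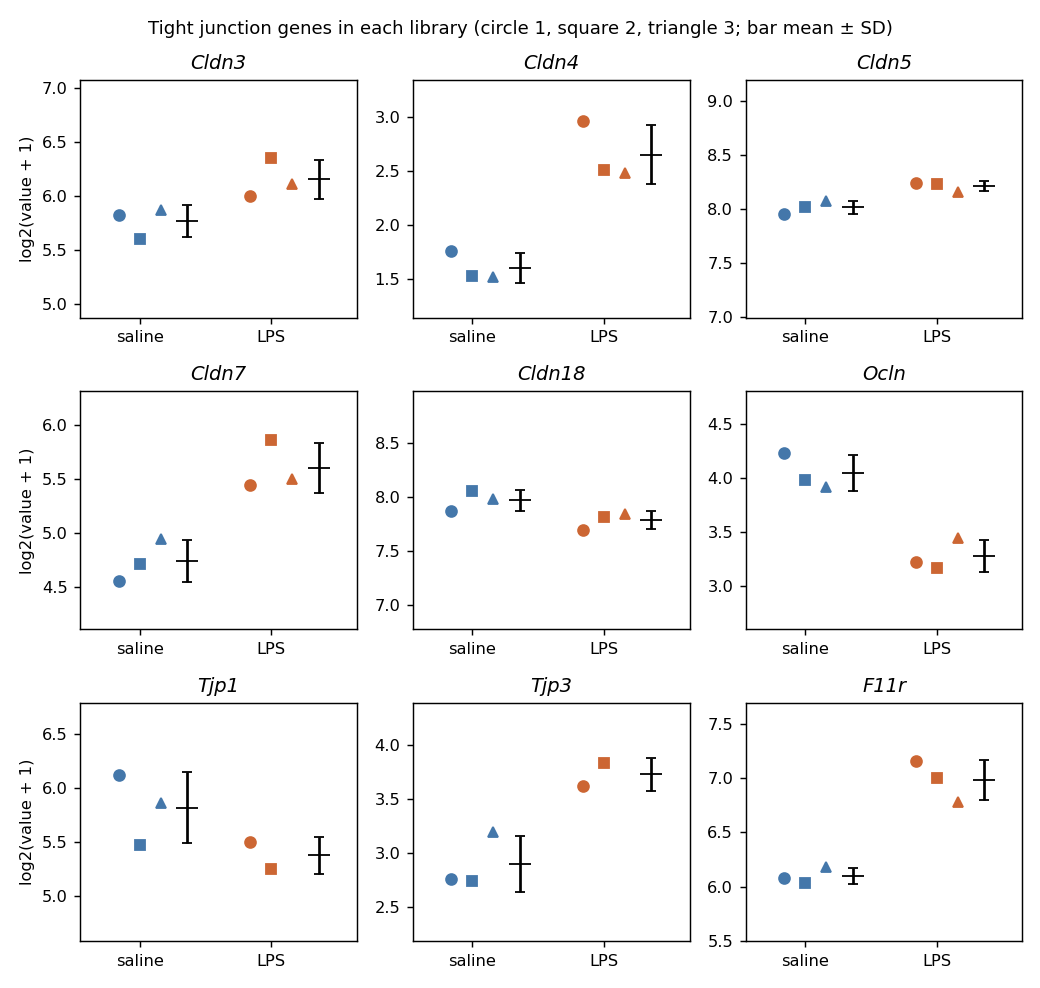
Deposited log2(value + 1) of the 9 genes (vertical axes, each spanning the same number of log2 units) in saline and LPS libraries, with the library number as the marker shape and the group mean ± SD beside the points. Cldn4, Cldn7, Tjp3 and F11r sit higher in LPS and Ocln sits lower, while Tjp1 overlaps and the differences of Cldn3 (0.39), Cldn5 (0.20) and Cldn18 (-0.18) are smaller.

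Cldn4 (chromosome 5, 134945119 to 134946934, minus strand, mm10; GENCODE M21) had the lowest level of the 9 genes in both groups and the largest rise. Its values were 1.76, 1.53 and 1.52 in saline 1, 2 and 3 and 2.96, 2.51 and 2.48 in LPS 1, 2 and 3. Every LPS library lay above every saline library, and LPS 1 was the highest. Before the log the level was 1.87 to 2.38 in saline and 4.57 to 6.80 in LPS. The difference was 1.05 (SE 0.17; 2.07-fold in value + 1; limma adjusted p = 0.00126). The ratio of the mean levels before the log was 2.62. The difference was 1.32 with quantile normalization and 0.44, no longer past the threshold (limma adjusted p = 0.0647), with equal sums.

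Cldn7 (chromosome 11, 69964779 to 69967885), which encodes a claudin found along the sides of epithelial cells as well as in tight junctions, rose by 0.86 (SE 0.17; 1.81-fold; limma adjusted p = 0.00348). It measured 4.56, 4.71 and 4.95 in saline and 5.44, 5.86 and 5.50 in LPS. The groups did not overlap, and LPS 2 was the highest library. The difference was 0.53 with quantile normalization (limma adjusted p = 0.0460) and 0.08 with equal sums, where it did not pass (limma adjusted p = 0.705).

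Cldn3 (chromosome 5, 134986214 to 134987472), the neighbour of Cldn4 and a claudin that tightens epithelia, had values of 5.83, 5.60 and 5.87 in saline and 6.00, 6.35 and 6.11 in LPS. Each LPS value was above each saline value, but the gap between the groups was small beside their spread. The difference of 0.39 (SE 0.16; 95% interval 0.02 to 0.75; limma adjusted p = 0.0721) did not pass, and its sign turned with quantile normalization (-0.11) and with equal sums (-0.40). Cldn4 minus Cldn3, which does not depend on the scaling between libraries apart from the added 1, was -4.07, -4.07 and -4.35 in saline and -3.03, -3.84 and -3.64 in LPS. The groups did not overlap, and the difference was 0.66 (exact two-sided permutation p = 0.1, the smallest that 3 against 3 allows). Without LPS 1 it was 0.42. Cldn3 shares exon bases with the antisense gene Wbscr25, whose own value was at most 0.34 in any library with a value. Whether strand was used in counting is not stated.

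Cldn18 (chromosome 9, 99689461 to 99717267), the claudin gene of alveolar epithelium with separate lung and stomach forms, was among the most abundant of the set. It measured 7.87, 8.06 and 7.98 in saline and 7.70, 7.82 and 7.85 in LPS, all LPS values just below all saline values. The difference of -0.18 (SE 0.17; 95% interval -0.55 to 0.19; limma adjusted p = 0.378) did not pass. It was -0.92 (limma adjusted p = 0.00147) with quantile normalization and -0.98 (limma adjusted p = 0.000343) with equal sums, so whether Cldn18 is called lower is decided by the scaling. In rank, which needs no scaling between libraries, 221 to 260 of 18699 genes were above Cldn18 in saline and 396 to 457 in LPS. Cldn5, whose deposited values were the higher ones in LPS, also lost rank (205 to 270 in saline, 321 to 329 in LPS). F11r gained rank (809 to 1066 in saline, 631 to 786 in LPS). Quantile normalization also works by rank, so the rank of Cldn18 is not separate evidence from it. The tables give 1 value per gene and do not separate its forms.

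Cldn5 (chromosome 16, 18776847 to 18778262), the endothelial claudin gene, had values of 7.95, 8.01 and 8.08 in saline and 8.24, 8.24 and 8.16 in LPS. All LPS values lay just above all saline values. The difference of 0.20 (SE 0.16; 95% interval -0.17 to 0.57; limma adjusted p = 0.344) did not pass, and it turned to -0.57 with quantile normalization (limma adjusted p = 0.0187) and -0.61 with equal sums (limma adjusted p = 0.00487). Of 14 other endothelial markers tested, 6 fell and 1 rose. The VEGF receptor gene Kdr (-2.17) and the phosphatase gene Ptprb (-2.21) were among those that fell, and Robo4 rose (0.96). Egfl7 (0.36) and Esam (0.32) lay above 0 without passing, and all other markers of the list lay below 0. The differences of Robo4, Egfl7 and Esam were larger than that of Cldn5. The mean of the 10 endothelial markers with 6 values was 6.19 to 6.45 in saline and 5.53 to 5.99 in LPS, and none of the 14 was at 0 in every library. Cldn5 minus that mean was 1.504, 1.83 and 1.82 in saline and 2.71, 2.25 and 2.32 in LPS. All LPS values were the higher ones, with a difference of 0.71 (exact two-sided permutation p = 0.1, the smallest possible; 0.18 adjusted over 9 such tests). In whole tissue, fewer cells of a type and less RNA per cell cannot be told apart.

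Ocln (chromosome 13, 100496507 to 100552718) encodes occludin, and was the member that passed in the lower direction. It measured 4.23, 3.98 and 3.92 in saline and 3.23, 3.17 and 3.45 in LPS, with no overlap. Before the log the level was 14.1 to 17.8 in saline and 8.002 to 9.92 in LPS. The difference was -0.76 (SE 0.15; 0.590-fold; limma adjusted p = 0.00314), and it passed in the same direction under all 16 alternatives tried, from -1.50 with equal sums to -0.67 without saline 1. The number of genes above Ocln was 3260 to 4010 in saline and 5117 to 5658 in LPS.

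F11r (chromosome 1, 171437535 to 171464603) rose by 0.89 (SE 0.16; 1.85-fold; limma adjusted p = 0.00218). Its values were 6.08, 6.03 and 6.18 in saline and 7.16, 7.01 and 6.79 in LPS, and the lowest LPS library was well above the highest saline library. The call was lost with quantile normalization (0.32; limma adjusted p = 0.148) and with equal sums (0.09; limma adjusted p = 0.622). Junctional adhesion molecule A is also carried by leukocytes and platelets. Of 9 neutrophil markers, 8 rose and 0 fell, with list means of 3.78 to 5.18 in saline and 6.71 to 8.44 in LPS. Of 8 platelet markers, 3 rose and 0 fell, with means over 7 of them of 2.79 to 3.24 in saline and 3.54 to 3.84 in LPS. In LPS, library 1 had both the highest neutrophil mean (8.44) and the highest F11r value (7.16), and in saline, library 2 had the highest neutrophil mean (5.18) and the lowest F11r value (6.03). The part of these cells in the F11r difference was not tested.

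Of the scaffold genes, Tjp3 passed the test and Tjp1 did not. Tjp3 (chromosome 10, 81273207 to 81291581), which encodes ZO-3, an epithelial scaffold, measured 2.76, 2.74 and 3.20 in saline and 3.62 and 3.84 in LPS 1 and 2. It rose by 0.83 (SE 0.19; 1.77-fold; limma adjusted p = 0.00830). The call ended with equal sums (0.09; limma adjusted p = 0.736) and without LPS 2 (0.72; limma adjusted p = 0.0609), which leaves 1 LPS value. Tjp3 shares exon bases with Apba3 on the other strand, whose difference was 0.13 (limma adjusted p = 0.478). Tjp1 (chromosome 7, 65296165 to 65527781), which encodes ZO-1, the scaffold of both epithelium and endothelium, measured 6.12, 5.47 and 5.86 in saline and 5.50 and 5.25 in LPS 1 and 2. Saline 2 lay within the LPS range. The difference of -0.44 (SE 0.22; 95% interval -0.95 to 0.07; limma adjusted p = 0.132) did not pass. Without saline 1 it was -0.29 (limma adjusted p = 0.323), and without LPS 2, which leaves 1 LPS value, -0.32 (limma adjusted p = 0.434). Without saline 2 it was -0.61 and passed (limma adjusted p = 0.0267), as it did with quantile normalization (-0.88; limma adjusted p = 0.0319) and with equal sums (-1.24; limma adjusted p = 0.00254).

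**Figure D2:**
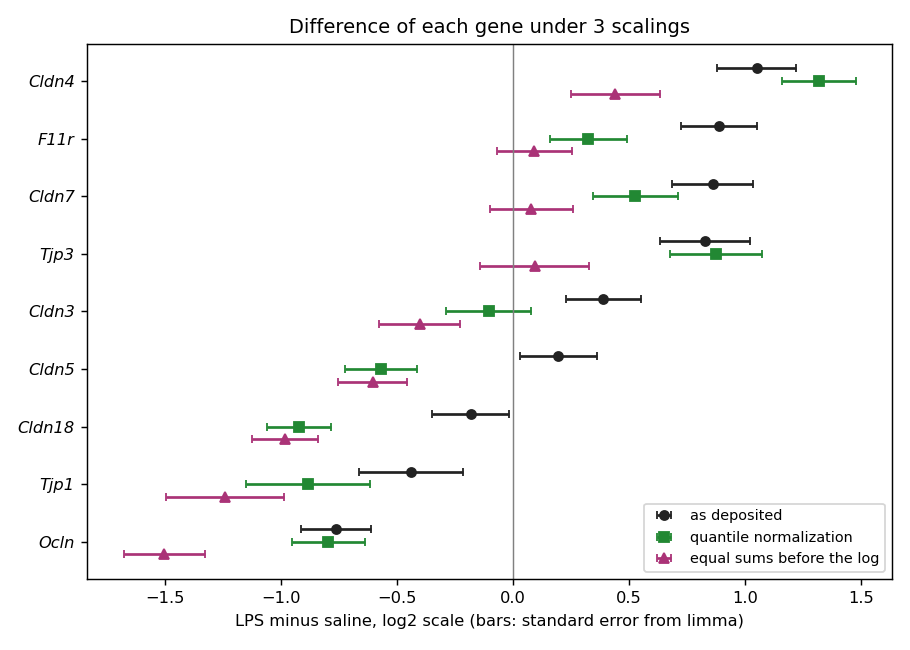
LPS minus saline (horizontal axis, log2 scale; bars are limma standard errors) of the 9 genes under the deposited scaling, quantile normalization and equal sums before the log. Cldn4, Cldn7, Tjp3 and F11r stay above 0 and Ocln, Tjp1 and Cldn18 below 0 under all 3 scalings, whereas Cldn3 and Cldn5 cross 0. With equal sums, Cldn7 (0.08), Tjp3 (0.09) and F11r (0.09) lie close to 0.

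Since the second scaling lowers nearly all genes, each member was also set against the median gene under it. With equal sums and the median of all genes (-0.68) subtracted, the differences were 1.12 for Cldn4, 0.77 for both Tjp3 and F11r, 0.76 for Cldn7, 0.28 for Cldn3, 0.07 for Cldn5, -0.31 for Cldn18, -0.56 for Tjp1 and -0.82 for Ocln. Since that scaling shifts most genes by a similar amount, these values are close to the deposited differences by construction.

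If the values are per length, as they appear to be, levels can be compared between genes; the unit is not stated. In saline the order of mean levels ran from Cldn5 (8.01 ± 0.06) and Cldn18 (7.97 ± 0.10), whose library ranges overlapped, through F11r (6.10 ± 0.08), Tjp1 (5.82 ± 0.33) and Cldn3 (5.77 ± 0.15), where each overlapped the next. Below these came Cldn7 (4.74 ± 0.20), Ocln (4.04 ± 0.16), Tjp3 (2.90 ± 0.26) and Cldn4 (1.60 ± 0.13), with no overlap between neighbours (SD, n = 3). In LPS Cldn5 (8.21 ± 0.05) and Cldn18 (7.79 ± 0.08) came first and Cldn4 last (2.65 ± 0.27; SD, n = 3). The order differed between the groups at Tjp1 and Ocln. Cldn3 and Cldn7 both stood above Tjp1 in mean level in LPS, Cldn7 with overlap, and Tjp3 stood above Ocln without overlap. In LPS the overlapping neighbours were Cldn7 and Tjp1 alone.

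Each member other than Cldn5 was also set against epithelial markers of the same library, and no difference passed 0.05. The reference was the mean of 12 pan-epithelial markers with 6 values, which was 4.87 to 5.27 in saline and 5.37 to 5.59 in LPS. Of 14 such markers tested, 8 rose and 1 fell, with the adhesion gene Epcam at 0.998, the keratin gene Krt7 at 1.01 and the transcription factor gene Elf3 at 1.37. With equal sums 1 rose and 6 fell, and Elf3 was at 0.61. Relative to this mean, Cldn4 was higher in LPS by 0.65, F11r by 0.49, Tjp3 by 0.48 and Cldn7 by 0.46, and Cldn18 was lower by 0.58, Tjp1 by 0.78 and Ocln by 1.16. Cldn3 was at -0.01. Cldn18 minus the mean was 3.0004, 2.93 and 2.71 in saline and 2.32, 2.32 and 2.26 in LPS. Ocln minus the mean was -0.64, -1.14 and -1.35 in saline and -2.15, -2.32 and -2.14 in LPS. LPS and saline libraries did not overlap for Cldn4, Cldn7, Cldn18, Ocln, Tjp1 and Tjp3, and overlapped for Cldn3 and F11r. For Cldn4 the highest saline library (-3.109) and the lowest LPS library (-3.108) were all but equal. The exact two-sided permutation p was 0.1 for Cldn4, Cldn7, Cldn18 and Ocln, the smallest that 3 against 3 allows, and 0.2 for Tjp1 and Tjp3, the smallest that 3 against 2 allows. It was 0.2 for F11r and 1.0 for Cldn3, so that none could reach 0.05 and none did after adjustment over the 9 tests (0.18 to 1.0). The direction for Cldn18 depends on the reference. Cldn18 lay below the mean of 9 alveolar type 2 markers in each saline library (7.87, 8.06 and 7.98 against 8.28, 8.36 and 8.48). In each LPS library Cldn18 lay above that mean (7.70, 7.82 and 7.85 against 7.36, 7.72 and 7.83). Relative to type 2 markers Cldn18 was thus higher in LPS, a difference that was not tested.

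**Figure D3:**
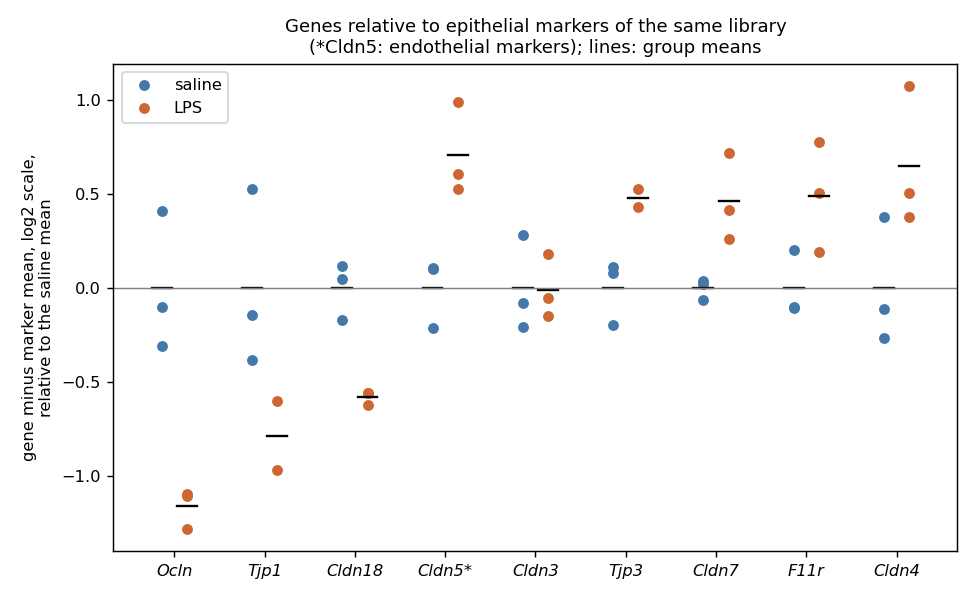
Each gene minus the mean of pan-epithelial markers in the same library (endothelial markers for Cldn5), drawn relative to the saline mean on the log2 scale; points are libraries and lines group means. Ocln, Tjp1 and Cldn18 lie lower in LPS and Cldn4, Cldn5, Cldn7 and Tjp3 higher, without overlap, while Cldn3 overlaps.

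Markers of single lung cell types were counted in the same way. Of 10 alveolar type 1 markers, 5 fell and 0 rose, with a list mean of 7.58 to 7.89 in saline and 6.98 to 7.49 in LPS. Of 10 alveolar type 2 markers, 5 fell and 1 rose, with a mean over 9 of them of 8.28 to 8.48 in saline and 7.36 to 7.83 in LPS. Sftpb, a surfactant protein gene, was at -1.60 and Cav1, a caveolar gene of type 1 and endothelial cells, at -1.44. The type 2 marker that rose was another surfactant protein gene, Sftpd (1.19). Sftpd did not pass with equal sums (0.39) or quantile normalization (0.19). Sftpc was at -0.39 and did not pass. Of 10 club and ciliated cell markers, 2 rose and 3 fell, and of 5 mesothelial markers 0 rose and 3 fell. None of these markers was at 0 in every library. The part of cell numbers in the members' differences was not tested.

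Of the other claudin genes, 8 of 24 could be tested, with 2 higher, 2 lower and a median of -0.03. With equal sums 1 was higher and 6 lower, with a median of -0.72, and with quantile normalization 2 were higher and 0 lower. Cldn2, which forms a pore for cations and water in leaky epithelia, had values of 0.46, 0.69 and 0.62 in saline and 2.37, 2.13 and 2.14 in LPS. The LPS libraries were all far above the saline libraries, with a difference of 1.62 (SE 0.15; limma adjusted p = 9.74e-05), 1.19 with equal sums and 1.84 with quantile normalization. Cldn2 passed the filter only through its LPS values. Cldn12 rose by 0.60, but was at -0.12 with equal sums. Cldn34c1 (-0.87) and Cldn8 (-0.53) were lower at low levels, and both calls were lost with quantile normalization. Both passed the filter mainly through their saline values. In LPS, only library 1 reached the filter's level for Cldn34c1, and only library 3 for Cldn8. Cldn1 (-0.05), Cldn10 (0.39), Cldn15 (-0.37) and the claudin-domain gene Cldnd1 (-0.01) did not pass. Cldn14, Cldn16, Cldn17, Cldn34c4 and Cldn34d were listed at 0 in every library.

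Among other membrane proteins of the junction, 11 of 12 were tested, with 4 higher, 2 lower and a median of 0.13. With equal sums 0 were higher and 7 lower, with a median of -0.59. Crb3, an apical polarity protein gene, rose by 1.02, and was at 0.25 without passing with equal sums. Its values were 3.90, 4.62 and 4.39 in saline and 5.39, 5.35 and 5.23 in LPS. Marveld3, a relative of occludin, rose by 0.70, Igsf5 by 0.54 and Lsr, a protein of the points where 3 cells meet, by 0.54, but with equal sums Marveld3 was near 0, Igsf5 at -0.20 and Lsr at -0.22. Jam2 (-0.58) and Jam3 (-0.55), which are among the relatives of F11r, fell, and Jam3 did not pass with quantile normalization. Marveld2, the other occludin relative, was at 0.08, the coxsackievirus receptor gene Cxadr at 0.13 and the endothelial adhesion gene Esam at 0.32, and none of these passed.

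Of 20 other scaffold genes tested, 8 fell and 2 rose, and their median was -0.32. With equal sums 0 rose and 15 fell. Mpdz, a scaffold of many PDZ domains that binds claudins, fell by 1.47, Pard3b by 1.25 and the membrane-associated guanylate kinase genes Magi1 by 1.01 and Magi3 by 0.89. Each of these 4 was also lower with quantile normalization. Amot, another of those that fell, passed the filter only through its saline values. Ybx3, a binding partner of ZO-1 that acts as a transcription factor, rose by 1.08 without a value in LPS 3 and was at 0.27, not past the test, with equal sums, and Mllt4, which encodes afadin, rose by 0.47 but was at -0.31 with equal sums. The cingulin gene Cgn was at 0.49 and did not pass. Of 23 regulators tested, 9 fell and 4 rose, and with equal sums 18 fell and 1 rose. Arhgef11 fell by 1.77, the repressor gene Snai2 by 1.75 and Mylk, the kinase gene of myosin light chain that loosens junctions, by 1.25. Elf3, an epithelial transcription factor gene, rose by 1.37, the membrane protease gene St14 by 1.004 and the ephrin receptor gene Epha2 by 0.73. With equal sums Elf3 still passed, while St14 (0.25) and Epha2 (-0.03) did not. Snai2 and St14 have no LPS 3 value, and Snai2 passed the filter only through its saline values. Grhl2, a transcription factor of epithelial junction genes, was at -0.02.

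Genes of the other cell junctions were called in both directions, where 24.3% of all tested genes were lower and 25.7% higher. Of 13 adherens junction genes, 5 fell and 2 rose, with the plakoglobin gene Jup at -1.26 and the cadherin gene Cdh2 at -0.96, and with Pvrl2 at 0.65 and the E-cadherin gene Cdh1 at 0.53, both below 0 with equal sums (-0.12 and -0.27). Cdh2 passed the filter only through its saline values. Of 8 desmosome genes, 2 fell and 1 rose, with the desmoplakin gene Dsp at -1.07. Evpl, the other that fell (-0.73), reached the filter's level in LPS only in library 3. Of 8 gap junction genes, 2 fell and 1 rose. Gjb5, the one that rose (0.61), reached the filter's level in saline only in library 3. Those that fell, Gja5 (-2.07) and Gja4 (-1.67), encode connexins of arterial endothelium. The medians were -0.40, -0.12 and 0.18. With quantile normalization 4 gap junction genes were higher and 2 lower, and with equal sums 0 were higher and 4 lower.

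**Figure D4:**
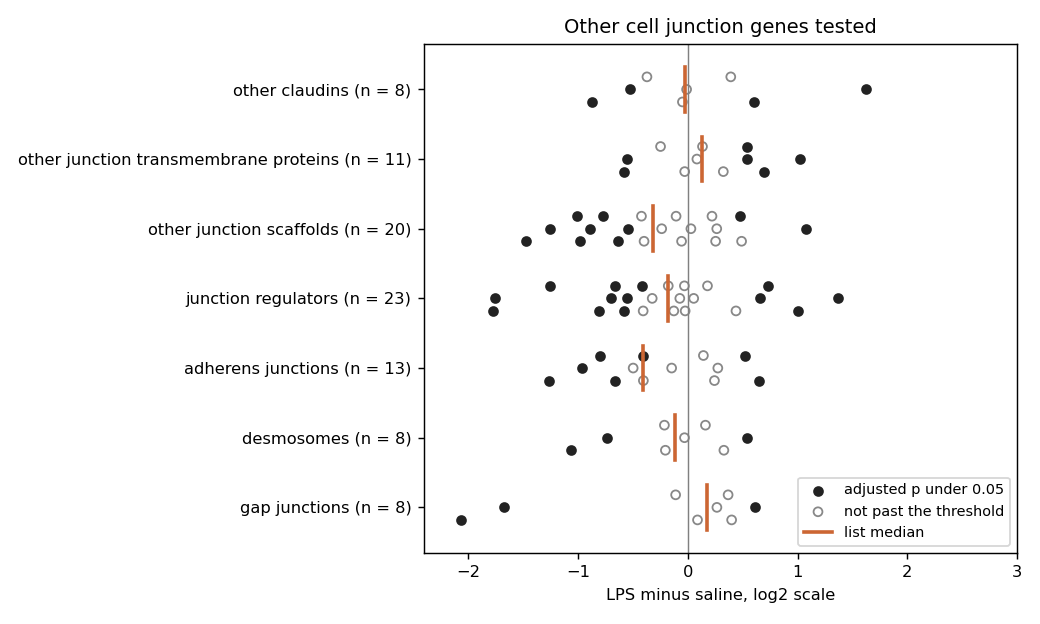
LPS minus saline (horizontal axis, log2 scale, deposited scaling) of each other junction gene tested, by list; filled points passed the test, open points did not, and vertical bars are list medians. Cldn2 is the rightmost claudin at 1.62 and the connexin gene Gja5 the leftmost gap junction gene at -2.07.

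Likeness of pattern over the 6 libraries was the root mean square difference between values centred on each gene's mean, over 10294 genes. Among the members with 6 values, F11r was nearest to Cldn4 and Cldn4 nearest to F11r (0.154), and F11r was nearest to Cldn7 (0.193). Cldn3 and Cldn5 were nearest to each other (0.165), Cldn5 was nearest to Cldn18 (0.205), and Cldn18 was nearest to Ocln (0.332). The closest genes overall were Gcnt2, Gpr4 and Mfsd7b for Cldn4 (0.072 to 0.085), Atad3a, Psmg3 and Anp32b for Cldn7 (0.055 to 0.095), and Ehbp1l1, Pcgf5 and Clk4 for F11r (0.074 to 0.076). For Ocln they were Got2, Fam160a1 and Heph (0.041 to 0.049), for Cldn3 Large, Ccdc65 and Shroom2 (0.044 to 0.056), for Cldn5 Ash2l, Glud1 and Rnf41 (0.024 to 0.035), and for Cldn18 Gcdh, Ocel1 and Pms2 (0.019 to 0.026). With 6 libraries in 2 groups, likeness mostly reflects the size of the group difference.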

How the data were processed

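RNA was sequenced from mouse lung in 6 libraries, 3 saline and 3 LPS. Per the labels' protocols, total RNA was taken with Trizol and made into libraries with a directional kit. Alignment was with TopHat to mm10, per the submitters' processing notes. The sources used here do not give the counter, annotation or scaling. The authors deposited 1 table per library, and its values were read as log2(value + 1). Low values before the log gathered more when multiplied by transcript length (fullest bin 29 to 42 genes, against 16 to 21 without), so they appear to be per length. Exact zeros number 3869 in each saline library, 6097 and 6223 in LPS 1 and 2, and 5117 of 18699 genes in LPS 3. Values above 0 but below 0.01 number 1505 to 1936 in saline and 11 to 24 in LPS. The low values of the groups' tables thus differ in form, which cannot be told apart from treatment. The LPS 3 table lacks 4484 genes.

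Genes with a value of at least 1 before the log in at least 3 libraries were kept (13116) and fitted with limma 3.58.1 in R 4.3.3 across all genes, with a variance trend, Benjamini-Hochberg adjustment and a threshold of 0.05. The fit was tested on simulated data. Exact permutation tests used scipy 1.17.1. Positions are from GENCODE M21 and promoters from RefSeq (GRCm38.p6), matched by symbol for all 9 members. The members, gene lists, tests and alternatives were chosen with earlier results of these data known. From each list the text names up to 3 called genes per direction, beside any claudin or junction membrane protein. Cgn, Magi3, Grhl2, Amot and Egfl7 were named outside that rule, after their values were seen, and Sftpc, Ager, Scgb1a1, Lcn2, Wbscr25 and Apba3 as checks.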

Additional observations from a re-analysis of the deposited data

How the results depend on the processing

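Of the 9 members, 4 were higher and 1 lower in LPS. The count of higher members was 0 with equal sums and 3 with quantile normalization. It was also 3 with a mean value of at least 5, where Cldn4 was not fitted. With only genes with 6 values, where Tjp1 and Tjp3 were not fitted, it was 3 as well. The count of lower members was 4 with quantile normalization and 4 with equal sums, and 2 with saline 1 and 3 against LPS 1 and 2, and it ranged from 1 to 2 when single libraries were left out, the 2 being without saline 2. Over all genes, 3377 were higher and 3188 lower. With quantile normalization 2694 were higher and 2787 lower. With equal sums 798 were higher and 8343 lower, at a threshold of 0.01 there were 2033 and 2004, and with a mean value of at least 5 there were 1752 lower. Cldn3 turned to -0.11 with quantile normalization and -0.40 with equal sums, and Cldn5 to -0.57 and -0.61. The cause was not tested. Relative to epithelial markers, Cldn3 ranged from -0.11 to 0.13 when single libraries were left out. Cldn4 minus Cldn3 ranged from 0.42 to 0.94 over its 7 alternatives. Deviations of same-numbered libraries correlated at -0.23, -0.08 and -0.25 over genes, and those of other pairs at -0.01 to 0.22. No shared deviation was thus seen, but so few libraries cannot show whether the replicate numbers in the titles pair them. With a replicate block, 2793 genes were higher and 2624 lower, and the members again gave 4 and 1. A pseudocount of 0.1, no filter, no variance trend and only genes with 6 values kept the sign of each member fitted. With unknown depth, no detection limit can be set for the claudins listed at 0.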
